A study of Arabidopsis thaliana with 32 samples.

Results

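Endosperm of selfed Col seeds was set against endosperm of selfed C24 seeds in Arabidopsis thaliana, using the 2 libraries titled Col x Col and the 2 titled C24 x C24 that came from laser-captured endosperm. These are 4 of the 32 libraries of the study. Col (Col-0) and C24 are natural inbred accessions, both called standard in the labels and grown under 16 h of light and 8 h of dark. In laser capture microdissection a tissue is cut out of a section under a microscope, so that endosperm and embryo of a seed can be read apart. The spread between replicates was estimated together with 4 more endosperm libraries, 2 of Col x C24 and 2 of C24 x Col hybrid seeds, the seed parent being named first. Whether replicates were taken from separate plants, and how many seeds went into each, is not stated in the labels, so a p-value here measures only how far these samples scatter, which may be technical. Another 3 sets of libraries were used only to see what the genes do elsewhere: embryos of the same selfed seeds, the hybrids' reads split by allele, and cytoplasm-nucleus swap (CNS) lines.

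Endosperm is the nourishing tissue of the seed. It arises when the central cell, which carries more than 1 maternal genome, is fertilised by a sperm cell, so that maternal genomes outnumber the paternal genome. It feeds the embryo with sugars and amino acids, and many of its genes are imprinted, that is, read mainly from the maternal or mainly from the paternal copy. Late in seed development the regulators of seed maturation switch on storage protein and oil genes, chiefly in the embryo and also in endosperm.

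Counts over genes totalled 9.84 and 9.30 M in the Col libraries and 12.8 and 16.7 M in the C24 libraries (M is 1e+06 reads). Levels below are counts scaled by TMM to a common library total of 1e+06 (CPM) and given for each library. Genes that mark endosperm summed to 2440 and 2175 CPM in Col and 1664 and 1841 CPM in C24, against 119 to 279.5 CPM in the 8 embryo libraries of the same crosses, so the tissue label held in all 4 libraries. Embryo markers summed to 132 and 124 CPM in Col and 298.5 and 272 CPM in C24, against 1361 to 1560 CPM in embryo. Seed coat markers summed to 808 and 610.4 CPM in Col and to 364 and 817 CPM in C24, against 159 to 207 CPM in embryo. The part of seed coat RNA in the results was not tested. Reads assigned to no gene made up 11.2% and 12.45% in Col and 5.995% and 7.81% in C24. In such tissue samples, fewer cells of a type and less RNA per cell cannot be told apart.

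Of 18797 genes tested, 2751 differed between selfed Col and selfed C24 endosperm, 14.6% of those tested (edgeR quasi-likelihood test, called at an adjusted p under 0.05). In Col, 1560 genes (8.3%) were higher and 1191 (6.34%) lower. The differences were often large. Among called genes, 1357 were at least 2-fold higher and 984 at least 2-fold lower in Col, 320 and 212 passed 16-fold, and 114 and 67 passed 256-fold. With library totals in place of TMM factors, the median of all genes moved from -0.02 to -0.30 on the log2 scale and the split turned to 1185 higher and 2379 lower, so the balance of the directions depends on the scaling, while each of the 2751 called genes kept its sign on both scales. TAIR10, the genome named in the submitters' processing notes, is a Col genome, and its part in the differences was not tested. In the hybrids, where both alleles are in each library, the median gene had allele reads shifted by 0.13 (log2) towards Col. Leaving out 1 library lowered the count to 1795 (Col replicate 1 omitted), 1529 (Col replicate 2 omitted), 1126 (C24 replicate 1 omitted) or 1698 (C24 replicate 2 omitted).

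The genes farthest apart were close to silent in 1 accession. LCR48, which encodes a small secreted cysteine-rich peptide of the defensin-like family, had 2357 and 2626 CPM in the Col libraries, against 0.27 and 0.887 CPM in the C24 libraries. It was thus among the most abundant messages of Col endosperm and near 0 in C24, a log2 difference of 12 ± 0.50 (SE; edgeR, adjusted p = 1.17e-06). The retroelement SADHU1-1 had 50.3 and 86.8 CPM in Col and 0 and 0.0554 CPM in C24 (log2 difference 10.78). TAR1, a relative of the tryptophan aminotransferase that makes auxin, had 10.3 and 14.6 CPM in Col and no read in C24, at least 136-fold higher in Col when C24 is set to 3 reads over both of its libraries. HDG10, a homeodomain transcription factor, and SAF1, an F-box protein, were likewise read only in Col of the selfed accessions, at least 87.0-fold and 89.3-fold higher. The C24 allele of HDG10 was read in the hybrids, however. In Col x C24 it gave 5 and 21 reads, against 1 and 2 of the Col allele. In C24 x Col it gave 0 and 0, against 5 and 24. NF-YC5, a subunit of the NF-Y transcription factor, had 47.5 and 58.7 CPM in Col, against 0.135 and 0.0554 CPM in C24. NIP1 stood at 737 and 437 CPM in Col and 3.1 and 4.88 CPM in C24. APD3, WRKY68, RLP2, NF-YC8 and HCHIB, a basic chitinase, completed the 12 named genes with the largest differences higher in Col, with log2 differences of 7.13 to 8.95. The rule for naming these 12 required both Col libraries to lie above both C24 libraries. HCHIB was not called in the fit of all 16 endosperm libraries (edgeR, adjusted p = 0.124).

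The opposite pattern was also present. GEX3, a gene known from gametes, had no read in either Col library and 29.2 and 29.4 CPM in the C24 libraries, so it was at least 172.5-fold lower in Col. GLP6, a germin-like protein, had 0.219 and 0 CPM in Col, against 111 and 78.3 CPM in C24 (log2 difference -9.60 ± 0.98, adjusted p = 1.97e-04 by edgeR). SC35, a splicing factor of the SR family, stood at 0.328 and 0.352 CPM in Col and 90.6 and 98.8 CPM in C24. CSLD6, a cellulose synthase-like protein, stood at 0.109 and 1.06 CPM in Col and 46.5 and 46.2 CPM in C24. The others of this group were FAE1, SADHU3-2, SCRL9, hda10, the wall-associated kinase WAKL4, the arabinogalactan protein FLA5, WRKY14 and WRKY59. FLA5 and WRKY59 had no read in Col, but their calls were lost when a replicate was left out (edgeR, adjusted p 0.0793 to 0.165 for FLA5 with either Col library or C24 replicate 2 omitted, and 0.0618 to 0.0696 for WRKY59 without any of the 4). WRKY14 was no longer called without Col replicate 2 (0.069) or C24 replicate 2 (0.056).

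**Figure D1:**
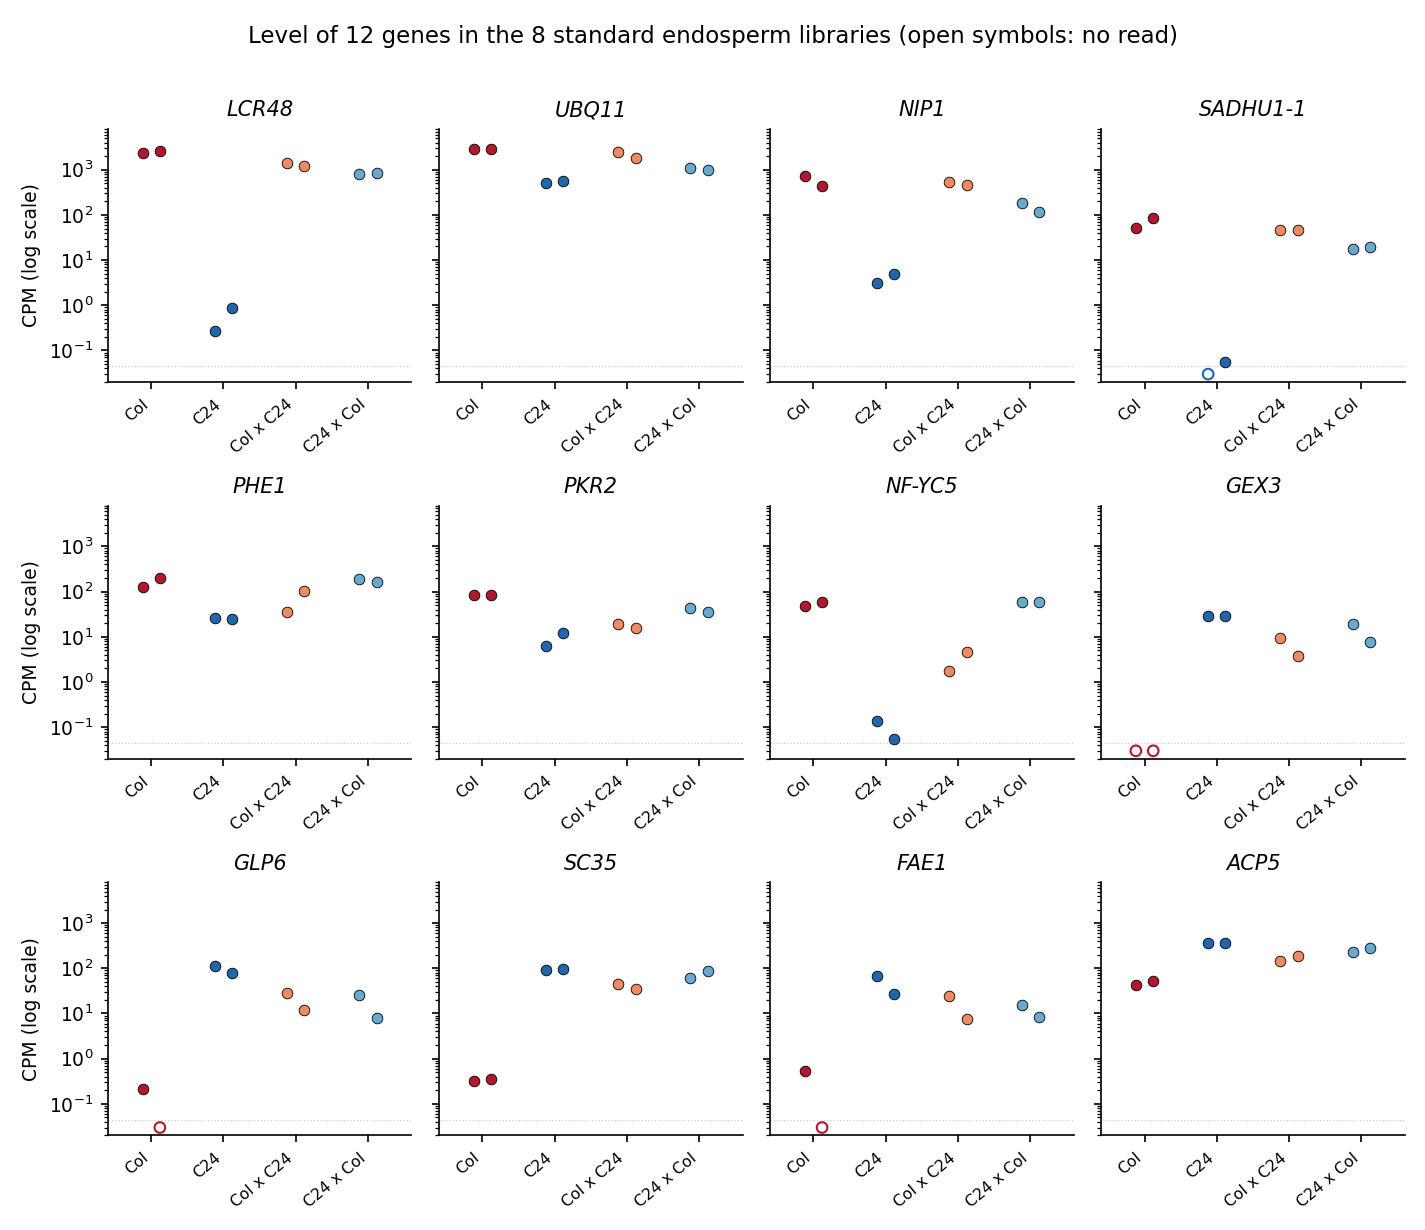
Level in CPM (log axis) of 12 genes in each of the 8 standard endosperm libraries, in columns for selfed Col, selfed C24, Col x C24 and C24 x Col, with 1 point per library and open symbols at the bottom for a library with no read. The first 7 genes are higher in Col than in C24 and the last 5 lower. Most were chosen by a rule that required no overlap between the selfed accessions, so the lack of overlap is not a result.

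Several genes without a symbol were as far apart, and these were chosen after their values were seen. AT2G15325, annotated as a lipid-transfer protein, had 1613 and 1615 CPM in Col and 5.66 and 6.65 CPM in C24. Another lipid-transfer family gene, AT1G32280, had 635 and 591 CPM in Col and 0.27 and 0.111 CPM in C24. AT4G00872, annotated as an inhibitor of invertase or pectin methylesterase, had 819 and 749 CPM in Col and 6.81 and 9.15 CPM in C24. In each of the 3, both Col libraries lay far above both C24 libraries, and the same sign was found in the CNS lines described below.

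The named genes with the highest levels in this direction include LCR48 and the following. UBQ11, a polyubiquitin gene, had 2907 and 2871 CPM in Col, against 514 and 569.9 CPM in C24 (log2 difference 2.41 ± 0.26, edgeR adjusted p = 2.92e-04). LCR73, a second cysteine-rich peptide, stood at 3335 and 4509.6 CPM in Col and 492 and 1173 CPM in C24. HSP81-3, a cytosolic HSP90 chaperone, had 2124 and 2221 CPM in Col and 624 and 747 CPM in C24. The annexins ANNAT2 and ANN6 were higher in Col by 1.104 and 1.54 on the log2 scale, the glutathione transferase GSTU15 by 2.29, and the arabinogalactan protein AGP24 by 1.097. The chaperones of the endoplasmic reticulum PDIL1-2 and CNX1 were higher by 1.22 and 1.25; the call of CNX1 was lost without any 1 of the 4 libraries (adjusted p 0.0614 to 0.226) and that of PDIL1-2 without Col replicate 1, C24 replicate 1 or C24 replicate 2 (0.0913 to 0.139). AGP24 and ANNAT2 were no longer called on library totals (0.0626 and 0.0585), nor without Col replicate 2 (0.163 and 0.189) or C24 replicate 1 (0.205 and 0.193), and AGP24 also not without Col replicate 1 (0.0957). CNX1 was not called on library totals either (0.0961).

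Lower in Col among abundant genes was ACP5, an acyl carrier protein that holds growing fatty acids, with 42.8 and 51.8 CPM in Col and 368 and 369 CPM in C24 (log2 difference -2.96 ± 0.25, edgeR adjusted p = 6.24e-05). LHCB1.2, a chlorophyll-binding protein of the light-harvesting complex, stood at 129 and 172 CPM in Col and 614 and 744 CPM in C24. The peroxidase PRXR1, the aquaporin PIP1C, the kinase SIP3, the ethylene response factor EBP, the proline dehydrogenase ERD5, the light-harvesting protein LHCB2.2, ULT2 and DI19 were lower by 1.00 to 1.39 on the log2 scale. None of these 8 was called without Col replicate 1 (edgeR, adjusted p 0.0516 to 0.182). All but LHCB2.2 and DI19 were also not called without C24 replicate 1 (0.0728 to 0.338), and PRXR1, PIP1C, SIP3 and ERD5 not without Col replicate 2 (0.0512 to 0.173). LHCB2.1 differed from its relatives, with 386 and 532 CPM in Col and 153 and 146 CPM in C24. Reads shared among near-identical light-harvesting genes make the value of each uncertain.

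Genes that carry the identity of endosperm did not move as a block. Of 12 endosperm markers tested, 4 were higher and 1 lower in Col and 7 were not called. That is 41.7% called, against 14.6% of all genes. The median log2 difference was 0.68, against -0.02 over all genes tested. PHE1, a type I MADS-box transcription factor of early endosperm, had 125 and 203 CPM in Col, against 25.6 and 24.2 CPM in C24. ADM, a J-domain protein, had 19.8 and 22.9 CPM in Col and 1.42 and 4.66 CPM in C24. FWA, a homeodomain factor, had 46 and 43.2 CPM in Col and 17.1 and 20.02 CPM in C24, and SWEET15, a sugar exporter, had 114 and 185 CPM in Col and 91 and 65.8 CPM in C24. FIS2, the Polycomb subunit that is specific to seeds, went the other way, with 46.8 and 28.9 CPM in Col and 57.1 and 98.6 CPM in C24. SUC5, a sucrose transporter, had 505 and 486 CPM in Col and 459.9 and 505 CPM in C24 and was not called (log2 difference 0.04, edgeR adjusted p = 0.926). ZOU, a regulator of endosperm breakdown, had 92.2 and 109 CPM in Col and 89.7 and 80.6 CPM in C24 and was not called either (log2 difference 0.24, adjusted p = 0.471). FWA was no longer called without Col replicate 1, C24 replicate 1 or C24 replicate 2 (adjusted p 0.0517 to 0.112). The number of markers called higher fell to 2 without C24 replicate 1 or C24 replicate 2, and that of markers called lower to 0 without Col replicate 2 or C24 replicate 2. SWEET15 was not called on library totals (adjusted p = 0.131), without Col replicate 2 (0.3), C24 replicate 1 (0.0861) or C24 replicate 2 (0.238), with all 16 endosperm libraries (0.0632) or with only the 4 compared libraries (0.0643).

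Type I MADS-box proteins pair up in endosperm and are known to control its proliferation. Of 9 such genes tested, 6 were higher in Col and none lower (66.7% called, against 14.6% of all genes). The median log2 difference was 2.72. PHE2, the neighbour and near copy of PHE1, stood at 136 and 207 CPM in Col and 8.36 and 16 CPM in C24 (edgeR, adjusted p = 7.01e-04), and reads shared by this pair make the share of each uncertain. AGL23 had 11.6 and 12.1 CPM in Col and 1.15 and 0.776 CPM in C24. AGL91 had 27.3 and 52.7 CPM in Col and 1.35 and 2.38 CPM in C24. AGL61 and AGL86 were the other 2 called, and AGL80, AGL28 and AGL92 were not. The summed level of the list was 382 and 551 CPM in Col, against 70.9 and 77.4 CPM in C24. The higher calls fell to 4 without C24 replicate 1, and to 3 in a fit of all 16 endosperm libraries.

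The 13 paternally expressed imprinted genes had a median log2 difference of 0.84. Of them, 5 were higher in Col and none lower (38.5% called, against 14.6% of all genes). Besides PHE1, PHE2, ADM and TAR1 these included PKR2, a chromatin remodeller of the PICKLE family, with 83 and 84.2 CPM in Col, against 6.2 and 12.2 CPM in C24 (log2 difference 3.18 ± 0.32, edgeR adjusted p = 1.96e-04). All 5 stayed called without each of the 4 libraries in turn, but PHE1 was not called in the fit of all 16 endosperm libraries (adjusted p = 0.0566). The 3 lists share members, so their counts are not separate evidence. In the hybrids PKR2 stood at 19.2 and 15.7 CPM in Col x C24, where C24 is the pollen parent, and at 44 and 35.9 CPM in C24 x Col, where Col is. ADM followed the pollen parent in the same way, with 5.93 and 8.36 CPM in Col x C24 and 22.8 and 17.1 CPM in C24 x Col. NF-YC5, which is in no list of imprinted genes used here, showed the same order, with 1.73 and 4.54 CPM in Col x C24 and 60.2 and 58.3 CPM in C24 x Col. By allele, however, most of its reads in Col x C24 were maternal, 4 and 29 of the Col allele against 2 and 17 of C24. In C24 x Col the Col allele gave 287 and 846 reads, against 0 and 0 of C24. The level of TAR1 did not follow the pollen parent, being at 2.97 and 1.32 CPM in Col x C24 and 1.3 and 0.708 CPM in C24 x Col, all far below the 10.3 and 14.6 CPM of selfed Col.

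Of 12 maternally expressed imprinted genes tested, 3 were higher and 2 lower in Col (41.7% called, against 14.6% of all genes). HDG8, a homeodomain factor, had 94.7 and 229.7 CPM in Col, against 0.539 and 1.72 CPM in C24 (log2 difference 7.12 ± 0.78). In the hybrids it stood at 12.5 and 43.4 CPM in Col x C24 and 28.8 and 45.7 CPM in C24 x Col. NRPD1, the large subunit of RNA polymerase IV, which starts RNA-directed DNA methylation, had 43 and 39.9 CPM in Col and 15.6 and 13.1 CPM in C24. MPC had 2.95 and 0.352 CPM in Col and 15.5 and 25.7 CPM in C24, and was not called without Col replicate 2 or C24 replicate 2 (adjusted p 0.06 and 0.0599). MEA, the Polycomb methyltransferase, was too low to test, with 0.547 and 0.587 CPM in Col and 0.472 and 1.11 CPM in C24. Of the wider set of 26 Polycomb and silencing genes, 3 were called (11.5%, fewer than the 14.6% of all genes). NRPD1 and the argonaute AGO9 were higher in Col, and FIS2 was lower. FIS2 was no longer called without Col replicate 2 or C24 replicate 2 (adjusted p 0.248 and 0.269), nor was AGO9 without Col replicate 1 or C24 replicate 1 (0.108 and 0.143).

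Several seed maturation regulators were lower in Col. Of 11 tested, 6 were lower and none higher (54.5% called, against 14.6% of all genes), with a median log2 difference of -1.03. ABI3, a B3-domain factor that drives the maturation programme, had 9.62 and 6.34 CPM in Col, against 53.1 and 40.3 CPM in C24 (log2 difference -2.54 ± 0.30, edgeR adjusted p = 5.12e-04). LEC2, a B3-domain factor of the same group, had 47.9 and 28.4 CPM in Col and 115 and 158 CPM in C24. The bZIP factor EEL had 22.3 and 15 CPM in Col and 62.1 and 49.5 CPM in C24. MYB118, which restrains maturation in endosperm in favour of the embryo, had 74.1 and 103 CPM in Col and 190.3 and 180.04 CPM in C24, and its relative MYB115 had 32.4 and 9.27 CPM in Col and 98.9 and 102 CPM in C24. WRI1, the regulator of fatty acid synthesis, is given here to complete the 6 and had 204 and 209 CPM in Col and 394 and 356 CPM in C24. LEC1 (214 and 271 CPM in Col, 211 and 234 CPM in C24) was not called (adjusted p = 0.799), nor were L1L, FUS3, BZIP67 and ABI5. The count of 6 fell to 4 without Col replicate 1, 3 without Col replicate 2, and 2 without C24 replicate 1 or C24 replicate 2; ABI3 and EEL were called in all 4 of these and LEC2 in none (adjusted p 0.0593 to 0.185). With all 16 endosperm libraries EEL (0.0842), LEC2 (0.0572) and MYB115 (0.0629) were not called. ABI3, FUS3 and LEC2 are also on the embryo marker list. The 12 embryo markers tested gave 0 higher and 2 lower calls, ABI3 and LEC2 (16.7%, near the 14.6% of all genes). MP, an embryo marker that does not belong to maturation, had 4.15 and 9.98 CPM in Col and 12.5 and 3.05 CPM in C24 and was not called. TAR2 had the largest difference among the markers not called (0.765 and 1.06 CPM in Col, 4.65 and 3.66 CPM in C24, adjusted p = 0.053). The part of embryo RNA in the maturation result was not tested beyond these values.

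Storage protein and oil body genes, known targets of that programme, were also among the genes lower in Col. Of 9 storage protein genes listed, only 3 had enough reads to be tested, and 2 of these were lower in Col (66.7% called, against 14.6% of all genes). The list summed to 2.7334 and 9.861 CPM in Col and 140.59 and 45.024 CPM in C24. With so few reads in Col, a listed gene could reach the minimum count mainly through the other libraries of the fit. The count of lower calls is thus not independent of the filter, and the levels of single genes are given as a description. The other listed members were too low to test, so the result does not cover them. SESA1, a 2S albumin, had 1.42 and 9.27 CPM in Col, against 94.1 and 37.9 CPM in C24, and CRA1, a cruciferin, had 1.2 and 0.587 CPM in Col and 41.3 and 5.66 CPM in C24. SESA1 was no longer called without C24 replicate 1 (adjusted p = 0.0985), and CRA1 without Col replicate 1, Col replicate 2 or C24 replicate 1 (0.13 to 0.338). Of 20 oil genes, 4 were lower and 1 higher (25% called, against 14.6% of all genes). FAE1, the enzyme that elongates fatty acids for seed oil, had 0.547 and 0 CPM in Col and 67.8 and 27.3 CPM in C24. Its Col allele was read in the hybrids, however, as given below. The oleosin OLEO1, a coat protein of oil bodies, had 1.53 and 1.88 CPM in Col and 45.9 and 15.5 CPM in C24 (edgeR, adjusted p = 0.00106), and OLEO3 had 120.2 and 137 CPM in Col and 275 and 226 CPM in C24. OLEO2 (5.79 and 5.99 CPM in Col, 51.6 and 19.9 CPM in C24) was the other of the 4. LPCAT2, which edits the acyl chains of membrane lipids, was the exception, with 64.2 and 62.7 CPM in Col and 19.6 and 20.7 CPM in C24 (log2 difference 1.65 ± 0.20). Enzymes of the shared part of the pathway such as FAD2 (518 and 520.4 CPM in Col, 624 and 611 CPM in C24) and FAB2 (269.96 and 274 CPM in Col, 298 and 261 CPM in C24) were not called. The lower calls among oil genes fell to 2 without Col replicate 1, Col replicate 2 or C24 replicate 1, and FAE1 and OLEO1 kept theirs.

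B3-domain factors such as ABI3 and LEC2 are known to bind the RY element, CATGCA, in promoters of storage genes. Promoters are shown for 3 genes that were lower in Col, from 250 bases before to 50 bases after the annotated start (RefSeq, TAIR10.1, plus strand), with each CATGCA, or TGCATG where it reads on the other strand, in capitals. They lie at chr4:13607079-13607378 for SESA1, chr4:12900180-12900479 for OLEO1 and chr4:16493955-16494254 for FAE1.
SESA1: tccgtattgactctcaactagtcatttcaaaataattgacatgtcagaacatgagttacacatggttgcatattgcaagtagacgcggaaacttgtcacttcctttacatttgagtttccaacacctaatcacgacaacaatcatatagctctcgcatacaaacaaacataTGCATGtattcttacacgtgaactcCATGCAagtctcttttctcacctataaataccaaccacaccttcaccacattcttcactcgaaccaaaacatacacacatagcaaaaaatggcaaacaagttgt
OLEO1: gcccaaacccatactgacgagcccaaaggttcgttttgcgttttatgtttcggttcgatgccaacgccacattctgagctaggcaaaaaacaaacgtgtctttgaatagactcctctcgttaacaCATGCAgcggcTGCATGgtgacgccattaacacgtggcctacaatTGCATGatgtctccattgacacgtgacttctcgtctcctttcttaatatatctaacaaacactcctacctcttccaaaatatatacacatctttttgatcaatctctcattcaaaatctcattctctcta
FAE1: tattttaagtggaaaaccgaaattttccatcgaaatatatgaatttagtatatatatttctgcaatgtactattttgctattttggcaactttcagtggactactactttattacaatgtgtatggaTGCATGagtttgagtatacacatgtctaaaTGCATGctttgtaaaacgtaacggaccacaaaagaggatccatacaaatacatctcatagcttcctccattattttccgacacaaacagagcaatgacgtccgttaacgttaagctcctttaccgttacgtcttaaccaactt
The element occurred in 7.91% of the 18671 promoters of tested genes, in 7.51% of those of genes higher in Col and in 10.8% of those of genes lower in Col. It was present in the promoters of all 3 storage protein genes with enough reads to be tested. It was also in 9 of 20 oil gene promoters and in all 4 of the oil genes called lower. None of the 6 maturation regulators called lower held it in this window. A match says only that these letters are there.

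In embryos of the same selfed seeds the picture differed by gene. ABI3 had 178 and 148 CPM in Col embryos and 187 and 155 CPM in C24 embryos, with no call (log2 -0.07, edgeR adjusted p = 0.902), and the test of the difference between the tissues gave -2.45 (adjusted p = 0.00574). LPCAT2 had 46.3 and 42 CPM in Col embryos and 51.3 and 50.2 CPM in C24 embryos, and here too the tissues differed (log2 1.88, adjusted p = 0.00118). SESA1 was lower in Col in embryo as well (log2 -4.14, adjusted p = 7.35e-05), with 7.99 and 5.78 CPM in Col embryos, against 117 and 125 CPM in C24 embryos. For OLEO1 (log2 -2.00, adjusted p = 0.00128) the levels were 26.5 and 18.5 CPM in Col embryos and 95.1 and 84.9 CPM in C24 embryos. For both, the tissue difference was not called (log2 0.53 and -2.14, adjusted p = 0.847 and 0.113).

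**Figure D2:**
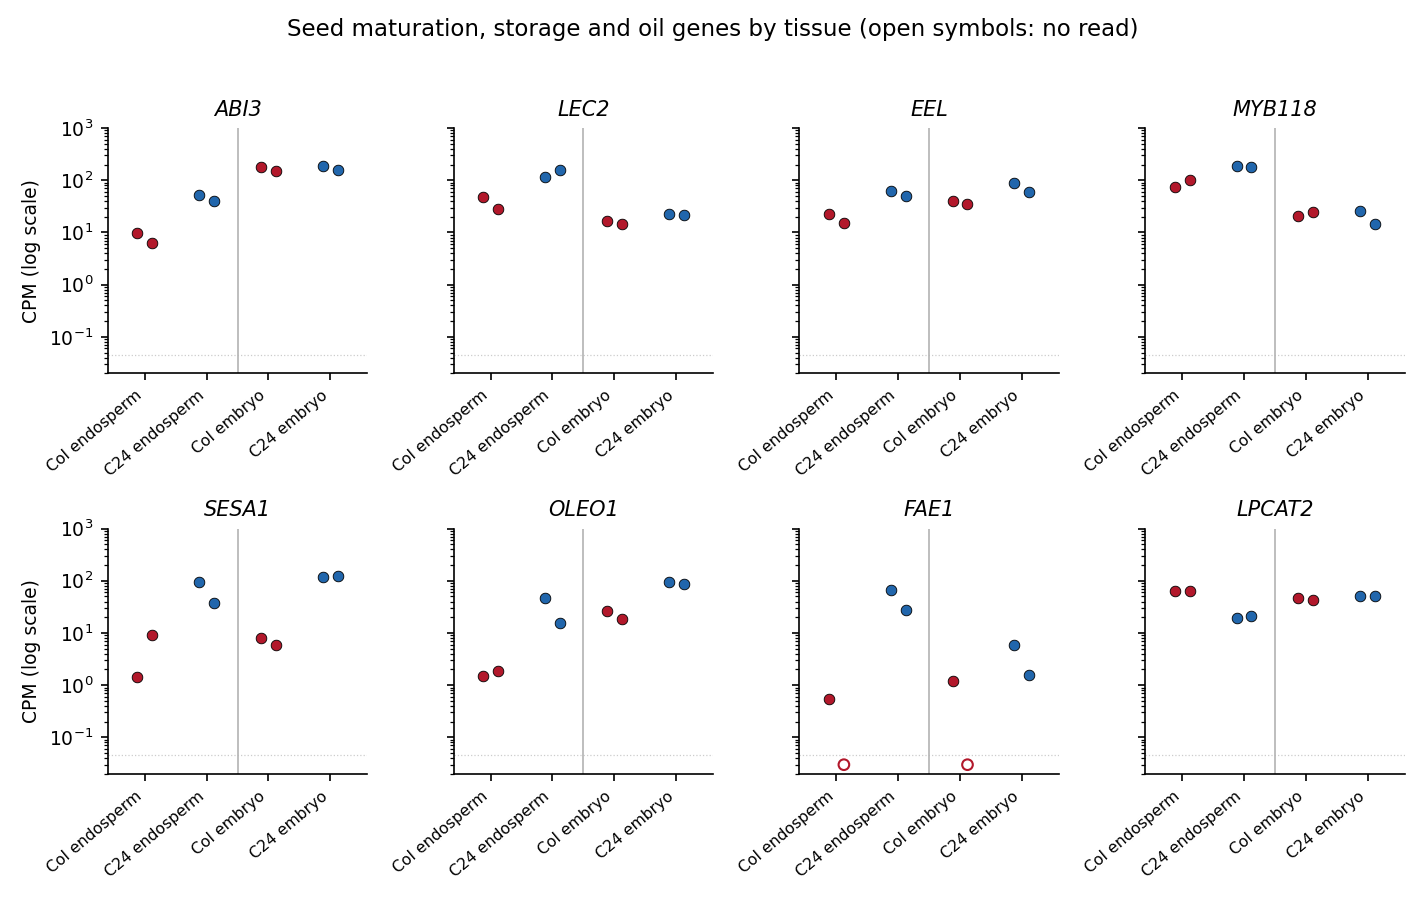
Level in CPM (log axis) of 4 maturation regulators and 4 storage or oil genes in endosperm (left of the line) and embryo (right of it), with Col left of C24 in each tissue, 1 point per library and open symbols for no read. ABI3 and LPCAT2 are apart between the accessions in endosperm and close in embryo, while for SESA1 and OLEO1 both Col libraries lie below both C24 libraries in each tissue.

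Flowering time genes carry well-known variation between accessions. FLC, the repressor of flowering, had 5.79 and 14 CPM in Col, against 50.1 and 30.8 CPM in C24 (log2 difference -2.04 ± 0.40, edgeR adjusted p = 0.00828). FRI, the activator of FLC, had 9.62 and 5.4 CPM in Col and 23.3 and 22.3 CPM in C24. MAF1, a relative of FLC, went the other way, with 4.26 and 3.64 CPM in Col and 0.135 and 0.0554 CPM in C24. VIN3, which helps to silence FLC after cold, had 2.84 and 1.64 CPM in Col and 24 and 13.4 CPM in C24. Of 13 flowering genes tested, 1 was higher and 4 lower in Col (38.5% called, against 14.6% of all genes). The last of the 4 was SOC1. FLC was no longer called without C24 replicate 1 (adjusted p = 0.0724), and FRI without C24 replicate 1 or Col replicate 2 (0.0552 and 0.0655). The lower calls of the list fell to 1 without C24 replicate 1 and to 2 without Col replicate 2.

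Disease resistance genes, which vary widely between accessions, gave 2 higher and 6 lower calls among 15 tested (53.3%, against 14.6% of all genes). RPP5 had 5.25 and 6.81 CPM in Col, against 33.7 and 38.2 CPM in C24 (edgeR, adjusted p = 1.73e-04). Its neighbours SNC1 and RPP4 on chromosome 4 moved with it, SNC1 at 6.56 and 5.99 CPM in Col and 28.4 and 28.1 CPM in C24, and RPP4 at 0 and 0.235 CPM in Col and 8.29 and 7.76 CPM in C24. These are members of a single cluster of similar receptor genes, so reads may be split among them and their values are uncertain. RPP8, at 0 and 0 CPM in Col and 3.91 and 1.89 CPM in C24, CW9 and ADR1 were the other 3 lower in Col. Without C24 replicate 1 the lower calls fell to 3. RLP2, a receptor-like protein, was the reverse, with 23.62 and 7.04 CPM in Col and 0.0674 and 0 CPM in C24.

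Cysteine-rich peptides of the LCR and SCRL families gave 17 higher and 3 lower calls among 52 tested of 109. That is 38.5% called, against 14.6% of all genes, with a median log2 difference of 0.99. LCR86 had 32.4 and 33 CPM in Col, against 0.0674 and 0.554 CPM in C24. SCRL14 had 782 and 799.9 CPM in Col and 41.1 and 120.05 CPM in C24, and LCR50 had 207 and 147 CPM in Col and 25.6 and 32.3 CPM in C24. SCRL9, LCR28 and LCR16 were the 3 lower in Col. The families hold similar copies, so single values are uncertain, and members that were too low to test are not covered by the count. Without Col replicate 2 the higher calls fell to 11. Skp1-like genes, which link F-box proteins to ubiquitin ligases, gave 2 higher calls among 13, 15.4% and thus near the 14.6% of all genes: SK3 with 569 and 827 CPM in Col and 59.5 and 138 CPM in C24, and SK11 with 9.08 and 5.05 CPM in Col and 0.202 and 0.388 CPM in C24.

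NF-Y subunits gave 7 higher and 2 lower calls among 27 (33.3%, against 14.6% of all genes). Besides NF-YC5 and NF-YC8, NF-YC6 had 639.5 and 491 CPM in Col and 87.9 and 165 CPM in C24, and NF-YB8 had 82 and 105 CPM in Col and 17.3 and 27.3 CPM in C24. The higher calls fell to 4 without Col replicate 2 or C24 replicate 1. Among 9 SADHU retroelements tested, 2 were higher and 4 lower in Col (66.7% called, against 14.6% of all genes). SADHU1-3 had 1.42 and 0.587 CPM in Col, against 53.2 and 38 CPM in C24, and SADHU3-2 had 0.219 and 0.117 CPM in Col and 27.1 and 26.3 CPM in C24. The elements are similar in sequence, so reads may be shared among them. Among 15 transporters of sugars and amino acids, 3 were called, all higher in Col (20%, against 14.6% of all genes). AAP1, an amino acid importer, had 374 and 299 CPM in Col and 117 and 139 CPM in C24, and SWEET15 was described above. UMAMIT14, the third called, rested on a single library, with 22.7 and 0.587 CPM in Col and 0 and 0.499 CPM in C24, and was not called without Col replicate 1 (log2 1.15, edgeR adjusted p = 0.738).

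The other groups gave the following counts, to be read against the 14.6% of all genes called. None of 10 seed size regulators and none of 10 wound and jasmonate genes was called. Of 28 cell cycle genes, 3 (10.7%) were called, all lower in Col (HIK, CYCB2;2 and CYCB1;4, with log2 differences of -0.84 to -1.09), and none of the 3 was called without Col replicate 1, Col replicate 2 or C24 replicate 1 (adjusted p 0.109 to 0.294). Of 23 seed coat markers, 1 was called, TT5, a flavonoid enzyme, with 4.05 and 4.7 CPM in Col and 9.84 and 19.2 CPM in C24, and its call was lost without either Col library or C24 replicate 2 (adjusted p 0.0795 to 0.141). Heat stress genes had a median log2 difference of -1.57, but their summed level was 1559 and 456 CPM in the Col libraries and 898 and 2682 CPM in the C24 libraries, so the range of each accession overlapped that of the other. HSP70b, the 1 of 16 that was called, had 11.4 and 5.28 CPM in Col and 19.1 and 173 CPM in C24, and was not called without C24 replicate 2 (adjusted p = 0.395) or without either Col library (0.0977 and 0.189). Single calls came from AOP3 of 7 glucosinolate genes, lower in Col (not called without C24 replicate 1 or Col replicate 2, adjusted p 0.158 and 0.0999), TAR1 of 11 auxin and cytokinin genes, and GLP6 of 3 germin-like proteins. The chromatin remodellers and J-domain partners gave 2 higher calls among 10, PKR2 and ADM, and the 1 PDF defensin tested was not called. The nuclear photosynthesis list gave 1 higher and 4 lower calls among 26 (19.2%), the higher being LHCB2.1.

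**Figure D3:**
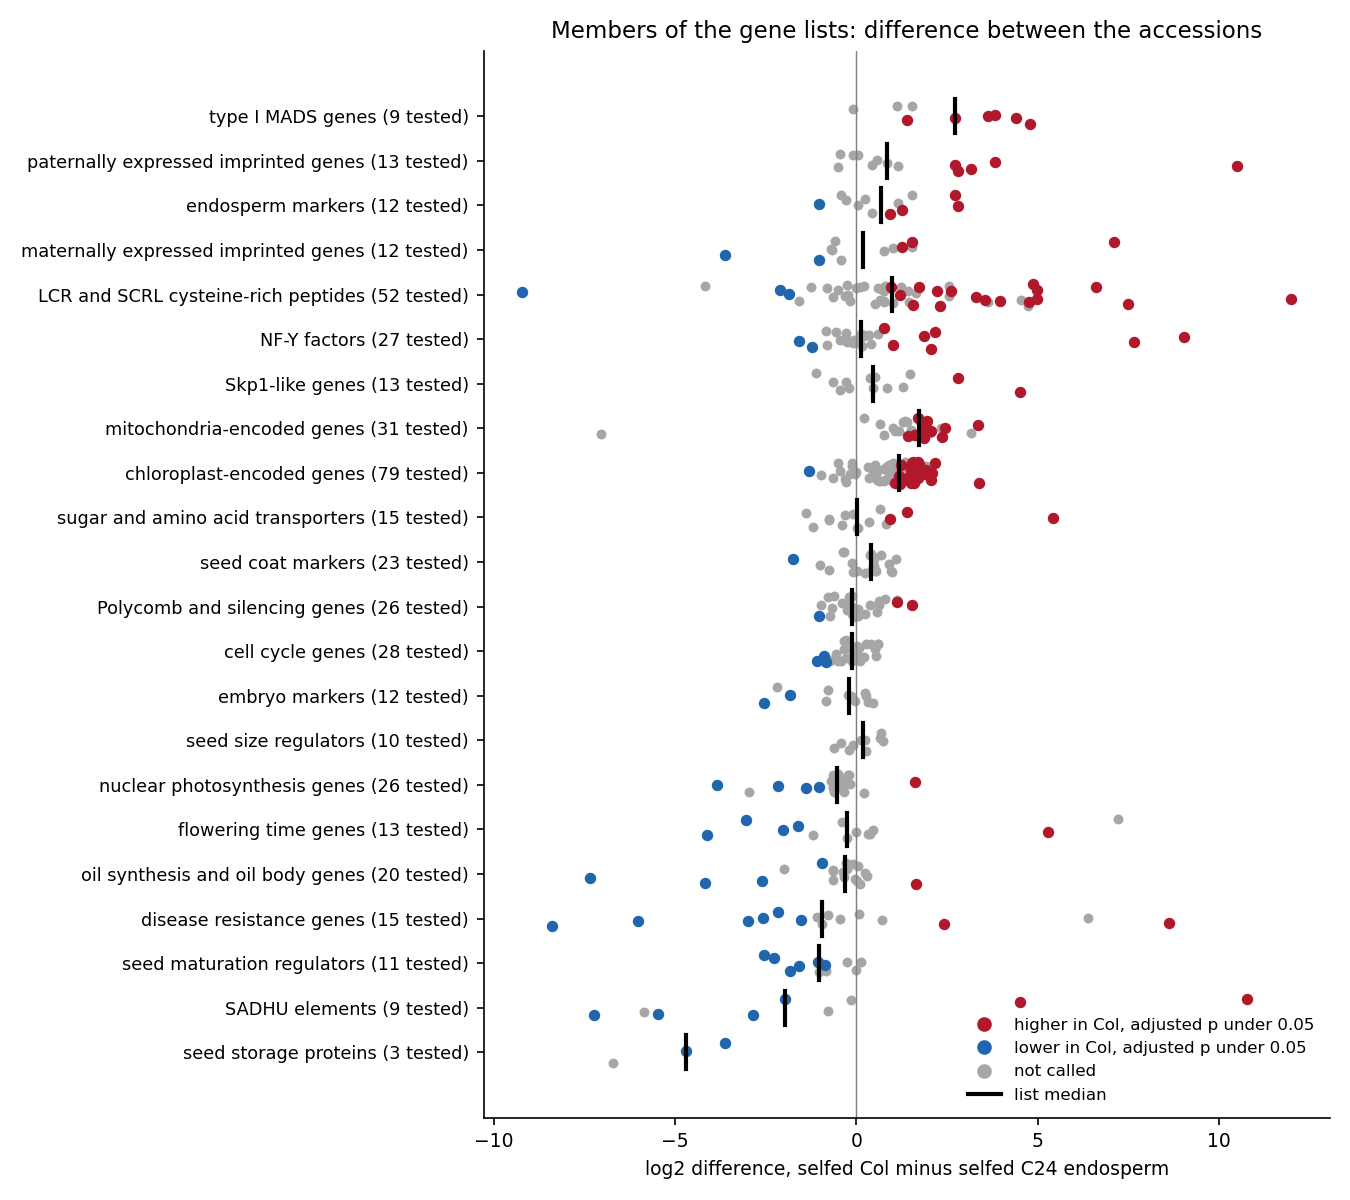
Log2 difference, selfed Col minus selfed C24 endosperm, for each tested member of 22 gene lists, with red points for genes called higher in Col, blue points for genes called lower, grey points for genes not called, and a black bar at the list median. Type I MADS genes have a median of 2.72 and seed maturation regulators a median of -1.03.

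Many genes encoded in the organelles were higher in Col. Of 31 mitochondrial genes tested, 13 were higher and none lower (41.9% called), with a median log2 difference of 1.74. Of 79 chloroplast genes, 28 were higher and 1 lower (36.7% called), with a median of 1.19. Of all genes, 14.6% were called. Mitochondrial genes took 0.998% and 0.718% of all counts in the Col libraries, against 0.267% and 0.360% in the C24 libraries, and chloroplast genes 0.264% and 0.252% in Col, against 0.206% and 0.187% in C24. Per the labels' protocols the libraries were made after poly-A selection. The share of reads without a gene, given above, was also higher in Col. The part of library preparation in the organelle result was not tested. Without C24 replicate 1 the higher calls fell to 0 mitochondrial and 5 chloroplast genes, without C24 replicate 2 to 8 and 7, without Col replicate 1 to 4 and 10, and without Col replicate 2 to 6 and 21.

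The CNS lines carry the nucleus of 1 accession in the cytoplasm of the other. Allele reads of their hybrids show which: seeds with Col(C24) as seed parent and Col as pollen parent had 61.5% and 63.5% C24 nuclear reads but 0.0173% and 0% C24 organelle reads, so Col(C24) has a C24 nucleus in Col cytoplasm, and C24(Col) has the reverse. Selfed C24(Col) minus selfed Col(C24) endosperm, 2 libraries each, therefore sets the Col nucleus against the C24 nucleus in other libraries and with the cytoplasms exchanged. Of 22103 genes tested there, 814 were called, 3.68%, with 482 higher (2.18%) and 332 lower (1.5%) with the Col nucleus. Of the 2750 genes called between the selfed accessions and tested in the CNS lines, 97.9% had the same sign, against 76.4% of all genes tested in both. In both comparisons 678 genes were called, 677 of them in the same direction, which is 24.7% of the first list and 83.4% of the second. LCR48 had 1814 and 1439 CPM with the Col nucleus and 0.184 and 0 CPM with the C24 nucleus, and GEX3 0 and 0 CPM with the Col nucleus and 38.4 and 7.57 CPM with the C24 nucleus. ABI3 was again lower with the Col nucleus, at 10.2 and 7.29 CPM, against 38 and 28.6 CPM with the C24 nucleus (edgeR, adjusted p = 0.0131). The medians of the organelle lists were 1.23 for mitochondrial and 1.45 for chloroplast genes with the Col nucleus minus the C24 nucleus, while single genes could differ, as ATCG00430 below. The mitochondrial share of counts overlapped there, at 0.737% and 1.895% with the Col nucleus and 0.2995% and 0.815% with the C24 nucleus. Reads assigned to no gene also went with the nucleus there, at 10.4% and 14.2% with the Col nucleus and 5.68% and 7.67% with the C24 nucleus. PKR2 (55 and 112 CPM with the Col nucleus, 48.1 and 34.8 CPM with the C24 nucleus) was not called there (log2 1.01, adjusted p = 0.268), and neither was PHE1 (0.39). HCHIB was at 7.62 and 0 CPM with the Col nucleus and 0 and 0.804 CPM with the C24 nucleus, with overlap (adjusted p = 0.593). The count of 814 fell to 286 with C24(Col) replicate 2 omitted, and with DESeq2 it was 2162.

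**Figure D4:**
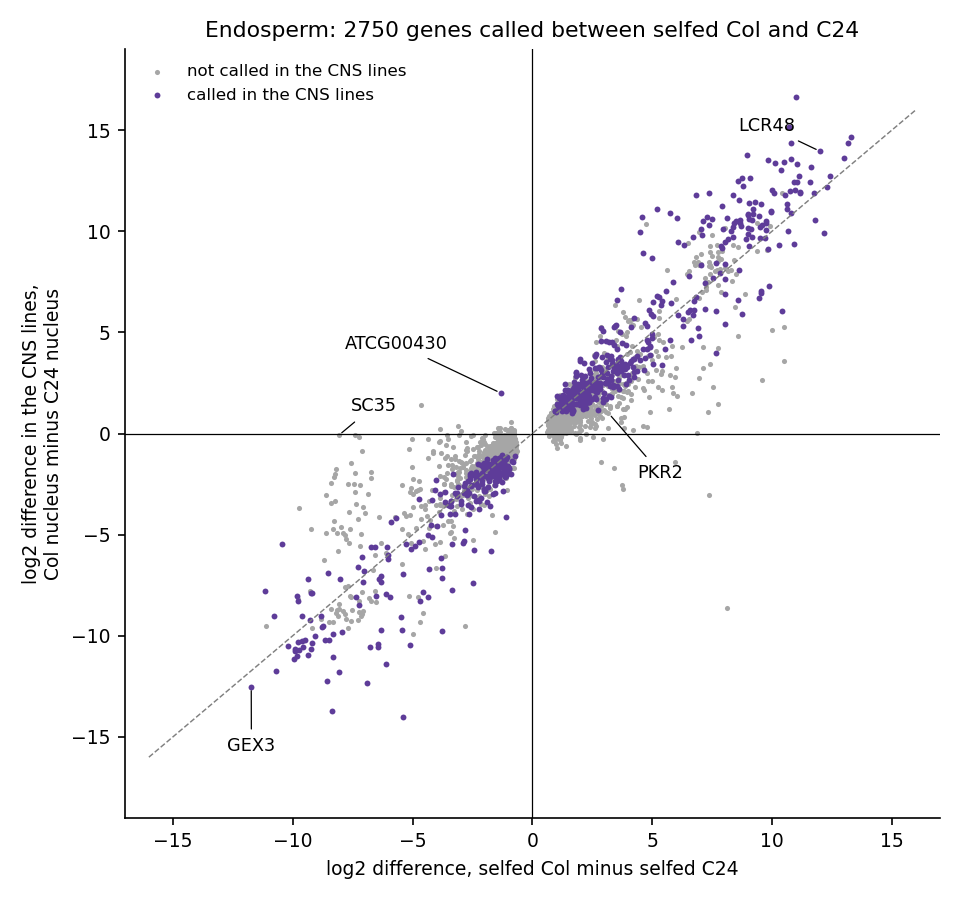
Log2 difference in endosperm for the 2750 genes called between selfed Col and selfed C24 and tested in the CNS lines, with Col minus C24 on the horizontal axis and Col nucleus minus C24 nucleus in the CNS lines on the vertical axis, purple for genes called in both and grey for the rest, and the dashed line marking equality. Most points lie in the lower left and upper right, 97.9% of them with the same sign, and SC35 lies near 0 in the CNS lines.

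SC35, ATCG00430 and MEA departed from the selfed accessions in the CNS lines, and ATCG00430 was chosen after its values were seen. SC35, near 0 in selfed Col, stood at 102 and 86.7 CPM in the CNS line with the Col nucleus and 89.6 and 113 CPM in that with the C24 nucleus (log2 -0.10, edgeR adjusted p = 0.893), and all 8 endosperm libraries of the CNS crosses lay between 85.1 and 113 CPM. It was also at 0.542 and 0 CPM in Col embryos, against 138 and 194 CPM in C24 embryos, and at 43.9 and 34.9 CPM in Col x C24 and 62.3 and 89.3 CPM in C24 x Col endosperm. It was thus near 0 in all 4 standard selfed Col libraries and not in those with the Col nucleus of the CNS line. ATCG00430, a chloroplast gene, was the only gene called in both comparisons with opposite signs. It had 17.604 and 25.122 CPM in Col, against 44.0 and 62.2 CPM in C24, and its level went with the cytoplasm: 75.7 and 64.0 CPM in C24(Col) and 15.5 and 19.4 CPM in Col(C24), 24.7 and 22.9 CPM in Col x C24, and 67.7 and 97.6 CPM in C24 x Col. The hybrid of C24(Col) as seed parent with Col(C24) lay between, at 38.1 CPM. MEA, too low to test in the selfed accessions, was called in the CNS lines (log2 7.43, edgeR adjusted p = 0.0387). It had 3.12 and 7.73 CPM with the Col nucleus and 0.0527 and 0 CPM with the C24 nucleus.

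In embryo, 18212 genes were tested and 1139 called (6.25%), 650 higher (3.57%) and 489 lower (2.69%) in Col. Of the 2342 genes called in endosperm and tested in embryo, 83% had the same sign there, against 64.1% of all genes tested in both tissues, and 523 were called in both, 515 in the same direction (22.3% of the endosperm list and 50.2% of the embryo list). The difference between the tissues was itself called for 359 of 20235 genes (1.77%), 205 with a higher (1.01%) and 154 with a lower (0.761%) Col minus C24 difference in endosperm than in embryo. Without Col embryo replicate 2 the embryo count fell to 432, and without Col embryo replicate 1 to 496.

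Inside the hybrids both alleles share a nucleus. The Col and C24 alleles differed for 1041 of 8271 genes with enough allele reads (12.6%), 753 with more Col (9.1%) and 288 with more C24 reads (3.48%). Over all these genes the median lay 0.13 (log2) towards Col, and after centring on it the split was 550 and 380. Of 1391 genes called between the selfed accessions and tested by allele, 77.3% had the same sign, against 60.4% of all 8195 genes tested in both, and 490 were called in both, 452 in the same direction. NIP1 gave more Col reads in this test (log2 4.36, edgeR adjusted p = 3.70e-07), GLP6 fewer (-5.54, 2.22e-06), and ACP5 fewer (-1.62, 0.00104). ABI3 also gave fewer Col reads (-1.32, 0.0185), while ANN6 (-0.02, 0.926) and LCR73 (0.05, 0.669) were not called. FAE1, far lower in selfed Col, was not called by allele either (log2 0.05 ± 0.64, adjusted p = 0.979 by edgeR). Each of its alleles had 9 to 22 reads per hybrid library. The count moved from 1041 to 2260 without Col x C24 replicate 1, to 282 without C24 x Col replicate 1 and to 242 without C24 x Col replicate 2.

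Genes read almost only in 1 of the selfed accessions were followed into the hybrids. For this purpose 87 genes had at least 5 CPM in Col and under 0.1 CPM in C24, and 42 the reverse. These values chose the genes, so the difference itself is a description. For the 87, hybrid endosperm held a median of 68.1% of the selfed Col level in Col x C24 (quartiles 43.4 and 82%), where Col gives 2 of 3 genomes, and 28.1% in C24 x Col (18.4 and 45.5%), where it gives 1 of 3. Their shares of genomes are 66.7% and 33.3%. Of the 87, 72 were higher in the hybrid with 2 Col genomes. These hybrid levels hold the reads of both alleles, and HDG10, among the 87, was read mostly from the C24 allele in Col x C24. The C24 allele of NF-YC5, also among the 87, was read there too, as given above. For the 42 genes read in C24, the hybrids held a median of 56.6% in C24 x Col (41.3 and 71%) and 24.4% in Col x C24 (17.5 and 44.2%), and 37 of 42 were higher in the hybrid with 2 C24 genomes. SADHU1-1 is an example, at 47.2 and 46.3 CPM in Col x C24 and 18.1 and 19.8 CPM in C24 x Col. In the CNS lines all 87 and all 42 kept their sign, and 75 and 33 of them were called. The selfed level both chose the genes and is the denominator of these percentages.

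**Figure D5:**
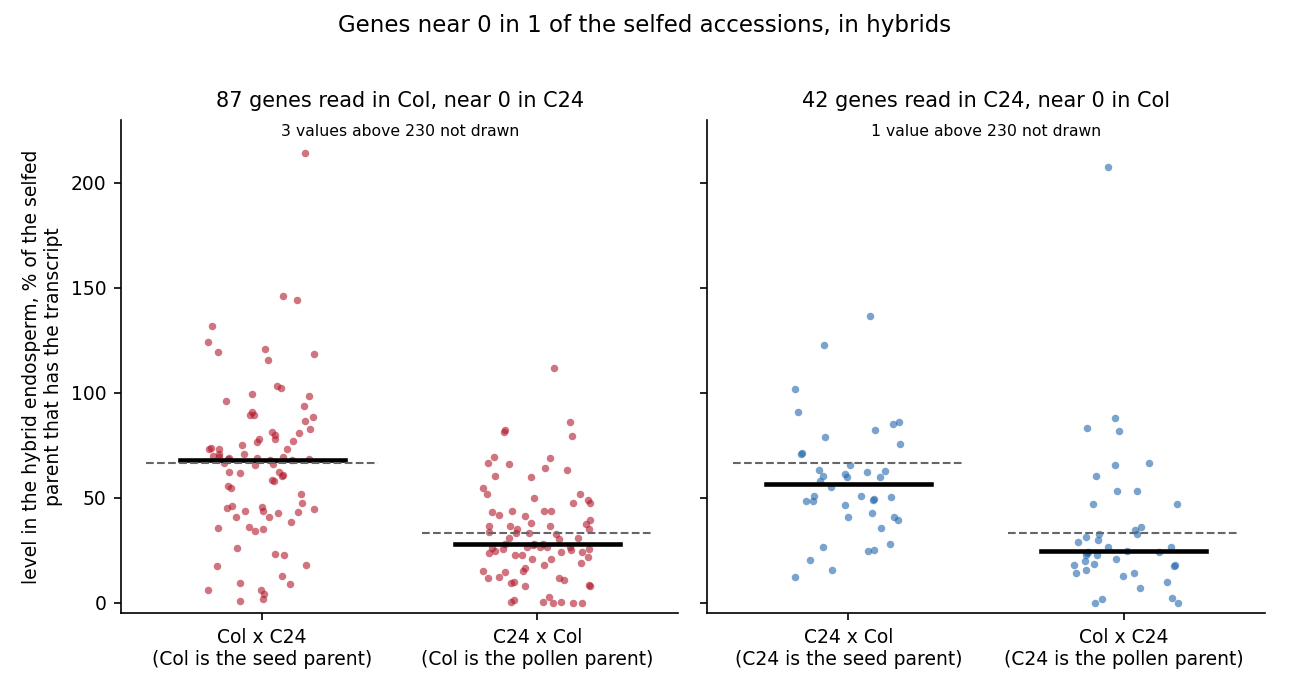
Level in hybrid endosperm as a percentage of the selfed parent that has the transcript, for 87 genes read in Col and near 0 in C24 (left) and 42 genes with the reverse (right), with 1 point per gene, a black bar at the median and a dashed line at the share of genomes (66.7% or 33.3%), the few values above the axis being counted in each panel. The hybrid that received 2 copies from the parent with the transcript lies higher in both panels, with medians of 68.1% against 28.1% and 56.6% against 24.4%.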

How the data were processed

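RNA of laser-captured endosperm and embryo was extracted with a micro-scale column kit and made into poly-A selected libraries, per the labels' protocols. The deposited files hold raw counts of reads per gene; the authors' tools, per the submitters' processing notes, were Trimmomatic, STAR, HTSeq and edgeR with TAIR10, and versions and whether strand was used are not given in the sources used here. The allele files hold counts of reads assigned to the Col or C24 allele. The 5 summary lines of each table were left out of totals and tests; the no-feature share is given in the results.

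Counts of the 8 standard endosperm libraries (4 groups of 2, 4 residual degrees of freedom) were fitted in edgeR 4.0.16 (R 4.3.3) by the quasi-likelihood test with TMM scaling, after removing low genes with filterByExpr (minimum count 10), and p-values were Benjamini-Hochberg adjusted over all genes tested. Errors (SE) are the log2 difference divided by the root of the F statistic. Embryo, the tissue interaction and the CNS lines were fitted likewise, and allele counts with library and parent of origin as terms (at least 10 allele reads per library). A gene with no read in an accession was set to 3 counts over its 2 libraries (0.17 CPM in Col, 0.0913 CPM in C24), which covers counting error only. On simulated counts the endosperm test recovered 35% of genes changed 2-fold and 99% of genes changed 4-fold (18324 genes). The simulation gave every gene the same spread and changed no gene with low counts, so these rates need not hold for the data.

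Named genes were, among called genes with a symbol, the 12 largest differences per direction with no overlap and at least 5 CPM in the higher accession, the 10 most abundant per direction with at least a 2-fold difference, up to 4 called members per list, and a few fixed genes. Others are said to be outside this rule or complete a count. The members, the 29 lists and the tests were chosen with earlier results of these data known. Names and promoters came from RefSeq TAIR10.1, in which 32835 of 33602 gene IDs and 839 of 869 list names matched. Alternatives were RLE factors, library totals, DESeq2 1.42.0, no filter, a minimum count of 50, other sets of libraries, a replicate block and leaving out each library; their effects are given at the end.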

Additional observations from a re-analysis of the deposited data

Results flagged for a closer look

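For 6 named genes the difference between Col and C24 was not the same in endosperm and embryo by the test of the tissue difference itself (edgeR, 359 of 20235 genes called, 1.77%). LCR48 was higher in Col by 12 in endosperm and 4.55 in embryo on the log2 scale, a tissue difference of 7.49 (adjusted p = 0.0076). Its embryo levels were 29.1 and 67.7 CPM in Col and 0.126 and 3.94 CPM in C24. The C24 embryo values are low and far apart, so the sizes of its embryo and tissue differences are uncertain. ABI3 differed by -2.54 in endosperm and -0.07 in embryo, a tissue difference of -2.45 (adjusted p = 0.00574). LPCAT2 differed by 1.65 in endosperm and -0.20 in embryo, a tissue difference of 1.88 (adjusted p = 0.00118). LHCB2.1 differed by 1.62 in endosperm and -0.10 in embryo, a tissue difference of 1.74 (adjusted p = 0.0124). DI19 differed by -1.37 in endosperm and 0.34 in embryo, a tissue difference of -1.67 (adjusted p = 0.0359). ANN6, higher in Col in both tissues, differed by 1.54 in endosperm and 2.91 in embryo, a tissue difference of -1.34 (adjusted p = 0.0253). Embryo markers summed to 132 and 124 CPM in Col endosperm and 298.5 and 272 CPM in C24 endosperm, against 1560 and 1518 CPM in Col embryo and 1424 and 1366 CPM in C24 embryo. Endosperm markers summed to 279.5 and 272 CPM in Col embryo and 181 and 119 CPM in C24 embryo. Both were thus below their own tissue but unequal between the accessions, and their part in these values was not tested.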

How the results depend on the processing

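All 2751 genes called between selfed Col and selfed C24 endosperm kept their sign in each alternative in which they were tested. The alternatives use the same selfed libraries in which these genes were chosen, so a kept sign is not separate evidence. The total of genes called was 1763 with all 16 endosperm libraries, 1759 of them among the 2751, and 1126 to 1795 with 1 library left out, 1098 to 1590 of them among the 2751. The total of list members called was 135, against 85 with all 16 libraries and 63 to 95 with 1 library left out. In the CNS lines the count of 814 became 1991 with a replicate block, 2162 with DESeq2, 2315 with no filter and 286 to 739 with 1 library left out. In embryo the count of 1139 became 3206 with the block, 1846 with DESeq2, 1804 with no filter and 432 to 863 with 1 library left out. For the tissue difference the count of 359 became 777 with the block, 968 with DESeq2, 692 with no filter and 105 to 293 with 1 library left out. The allele count of 1041 ranged from 242 to 2260 with 1 library left out. The cause of these changes was not tested beyond the smaller number of libraries. With the replicate block the endosperm count was 3485. The replicate numbers were not shown to pair the libraries, since same-numbered Col and C24 libraries deviated with a correlation of -0.1003 and the other 5 pairs of groups in the fit with -0.029 to 0.34, over 2 numbers; with the numbers of C24 exchanged, an alternative chosen after seeing the data, the count was 3553. Of 100 named genes with a test, 32 were no longer called with C24 replicate 1 omitted, 28 with Col replicate 1 omitted, 25 with Col replicate 2 omitted, 17 with C24 replicate 2 omitted, 23 with all 16 libraries, 6 with only the 4 compared libraries, 4 on library totals and 2 with the block (UMAMIT14 and HSP70b), and none changed sign. On simulated counts the test recovered 35% of 2-fold changes, a rate that need not hold for the data, as said above. Differences near 2-fold may have been missed, although some called genes differed by less.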

Other observations

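Gene kinds differed in how often their members were called, with kinds taken from the annotation's product names after the data were seen. One kind took product names with defensin, cysteine-rich, SCR-like, ECA1, self-incompatibility or S-protein, so not all its members need be small cysteine-rich peptides. Of its 161 genes tested, 59 were higher and 8 lower in Col, 41.6% called, against 14.6% of all genes. F-box genes gave 95 higher and 33 lower calls among 386 (33.2%), lipid-transfer proteins 15 higher and 1 lower among 49 (32.7%), and pectin methylesterases or their inhibitors 17 higher and 4 lower among 53 (39.6%). Disease resistance genes of the NBS-LRR class gave 13 higher and 17 lower calls among 86 (34.9%), and pseudogenes 72 higher and 67 lower among 360 (38.6%). At the other end stood pentatricopeptide repeat proteins, which edit and process organelle RNA, with 3 higher and 4 lower calls among 244 (2.87%), and ribosomal proteins with 7 higher and 5 lower among 328 (3.66%). Members of a family share sequence, so these counts are descriptions.

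The share called was 13.5% on chromosome 3 and 15.3% on chromosome 2, with chromosomes 1, 4 and 5 between, and over 112 windows of 1000000 bases with at least 20 tested genes its median was 14.3% and its range 5.78% to 38.5%. High windows lay side by side in places: on chromosome 3 the windows starting at 14000001 and 15000001 had 38.5% and 36.4% called (of 26 and 55 genes), and on chromosome 1 those starting at 16000001 and 17000001 had 28.6% and 27.0% (of 63 and 137 genes).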
